A study of Rattus norvegicus with 4 samples.

Results

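Apolipoproteins and the proteins that load them with lipid were followed in pancreatic RNA of rats fed 3 levels of iron. The set holds 10 genes (Apoa1, Apoa2, Apoa4, Apoa5, Apob, Apoc2, Apoc3, Apoe, Mttp and Mogat2), which 11 of the 30367 gene probes of the array measure, Mogat2 by 2 of them. The genes were chosen by measured values of these same arrays together with their known roles, so their ratios are given as a description and carry no test. Male Sprague-Dawley rats received an iron-deficient (FeD, 5 ppm iron), iron-adequate (FeA, 35 ppm per the labels) or iron-overloaded (FeO, 20275 ppm) diet for 3 weeks, starting as weanlings. Pancreatic RNA of 6 rats per diet was combined into 1 pool. The array experiment set FeD against FeA and FeO against FeA, each on 2 arrays that read both pools at once in different dyes. Array 1 carried the diet pool in Cy5 and array 2 in Cy3. The pair of arrays repeats the same RNA and counts as 1 replicate, so their spread is technical and says nothing of the spread among rats. With 1 pool per diet the diets could not be tested, and the FeD and FeO comparisons share the FeA pool. In pooled tissue RNA, fewer cells of a type and less RNA per cell cannot be told apart.

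Apolipoproteins are the protein part of lipoproteins, the particles that carry fat and cholesterol through blood and lymph. Apob forms the scaffold of chylomicrons and very low density lipoprotein, Mttp loads lipid onto it in the endoplasmic reticulum, and Mogat2 rebuilds absorbed monoacylglycerol toward the triacylglycerol that fills chylomicrons. The liver and the enterocytes of the small intestine are the main tissues that make these particles, while Apoe is also made by macrophages and many other cells. The pancreas is better known for its secreted lipases, which digest fat in the gut, than for lipoprotein assembly.

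All values below are log2 ratios of the diet pool over the FeA pool, or normalized log2 signals of 1 probe, computed from the spot intensities that the authors deposited. The ratio of a probe is reported on each array and as the mean of the 2 arrays. A probe was taken into counts when it was well above background, by the scanner software's criterion, on both arrays in at least 1 of the 2 pools. It also needed a ratio on both arrays. A gene was called lower or higher at a log2 size of 1 or 2 when the mean ratio of any probe that entered reached that size with the same sign on both arrays. No other probe of the gene could reach that size in the other direction. Over all probes that entered, the 2 arrays of a comparison differed by a median of 0.225 log2 in FeD and 0.234 in FeO, and 95% of probes differed by less than 0.725 and 0.775. Between 61.9% and 71.5% of gene spots per channel were well above background. The tissue label was borne out by 15 of 15 acinar markers on the array, which were well above background in every pool.

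Apoa1, the main protein of high density lipoprotein, was lower in both diet pools than in FeA, with a mean ratio below that of the other members under the main processing. With the scanner software's processed signals the brighter Mogat2 probe, not well above background in either diet pool, lay lower in FeD (-4.89 against -4.61 for Apoa1). The normalized signal of Apoa1 in the FeA pool was 9.42 and 9.39 on the FeD arrays and 9.32 and 9.16 on the FeO arrays. It was 6.25 and 6.68 in the FeD pool and 5.98 and 6.50 in the FeO pool. All 4 FeA values thus lay above both diet pools without overlap. The FeD ratios were -3.17 and -2.71, a mean of -2.94 or 7.67-fold, with the FeD pool well above background on 1 of 2 arrays. The FeO ratios were -3.35 and -2.66, a mean of -3.01. Since neither array put the FeO pool well above background, the fold of that mean is a bound, at least 7.94-fold lower. The values of FeD and FeO overlapped each other. The authors also measured Apoa1 in pancreas by quantitative PCR (qRT-PCR) and reported that it fell under the detection limit.

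Apoc3, an inhibitor of lipoprotein lipase whose gene lies next to Apoa1, was lower in both diet pools by a smaller amount. Its FeA signals were 7.28, 7.09, 7.28 and 7.20 over the 4 arrays, whereas those of FeD were 6.23 and 6.32 and those of FeO 6.36 and 6.56. The groups did not overlap, although each diet pool was well above background on only 1 of its 2 arrays. The ratios were -1.05 and -0.77 in FeD (mean -0.91) and -0.92 and -0.64 in FeO (mean -0.78).

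Apoa4, a protein of newly made chylomicrons, was lower in both diet pools, and every pool was well above background on every array. Its FeA signals ran from 9.36 to 9.66, those of FeD were 8.53 and 8.48, and those of FeO were 8.59 and 8.58. The ratios were -0.83 and -1.07 in FeD (mean -0.95, 1.93-fold) and -0.89 and -1.08 in FeO (mean -0.99, 1.98-fold). Both means stopped just short of the size of 1, and these 2 mean ratios differed from each other by less than the 2 ratios of either comparison did.

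Apoa5, which raises the breakdown of triacylglycerol-rich particles and follows Apoa4 in the same gene row, stayed near 0. The FeA signals ran from 6.96 to 7.26, and the FeD values of 7.25 and 6.99 and the FeO values of 7.17 and 7.03 all fell inside that range. The ratios were 0.13 and -0.13 in FeD and 0.21 and -0.23 in FeO, opposite in sign between the arrays, with means of -0.00 and -0.01. Every pool was well above background on every array.

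These 4 genes stand in a row on rat chromosome 8 in the reference annotation (RefSeq, GRCr8), in the order Apoa1, Apoc3, Apoa4 and Apoa5 with no other protein-coding gene listed between them. Along the row, with Apoa1 at background in the FeO pool, the mean FeD ratios were -2.94, -0.91, -0.95 and -0.00, and the mean FeO ratios were -3.01, -0.78, -0.99 and -0.01. Under the main processing the neighbours Apoc3 and Apoa4 differed from each other by less than the 2 arrays of Apoc3 did, in both comparisons. Apoc3 was well above background on only 1 of 2 arrays in each diet pool, and that likeness depended on the processing. With the scanner software's processed signals the means were -3.17 for Apoc3 against -1.12 for Apoa4 in FeD. In FeO they were -2.19 against -1.20.

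Promoter sequence from RefSeq (GRCr8) was at hand for 4 of the 10 genes: Apoa4, Apoa5, Apoc2 and Apoe. The 250 bases before the annotated start are shown for neighbours of the row that differed in ratio, Apoa4 (chr8:55435529-55435778, plus strand) and Apoa5 (chr8:55457621-55457870, plus strand, the first of 2 annotated starts), and for Apoc2 (chr1:88462366-88462615, minus strand). Capitals mark matches on either strand to TATAAA (the TATA box), AGGTCA (a nuclear receptor hexamer), AAAGTCC (the core of an HNF4-type site) or GTTAAT (part of an HNF1-type site).
Apoa4: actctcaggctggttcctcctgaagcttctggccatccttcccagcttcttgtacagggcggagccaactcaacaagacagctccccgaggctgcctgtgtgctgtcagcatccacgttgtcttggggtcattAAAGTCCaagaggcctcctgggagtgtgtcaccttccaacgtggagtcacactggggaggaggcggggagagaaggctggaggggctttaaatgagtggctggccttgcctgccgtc
Apoa5: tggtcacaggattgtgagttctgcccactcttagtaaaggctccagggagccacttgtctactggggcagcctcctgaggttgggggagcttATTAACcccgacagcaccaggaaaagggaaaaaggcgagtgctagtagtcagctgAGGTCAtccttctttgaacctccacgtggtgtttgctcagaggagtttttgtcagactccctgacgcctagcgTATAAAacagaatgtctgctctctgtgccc
Apoc2: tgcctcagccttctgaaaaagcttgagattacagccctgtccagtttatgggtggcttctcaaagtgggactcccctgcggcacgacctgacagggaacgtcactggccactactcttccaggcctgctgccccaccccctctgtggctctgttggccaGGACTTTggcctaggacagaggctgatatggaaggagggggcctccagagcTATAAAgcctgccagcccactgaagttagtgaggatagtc
The Apoa4 window held 1 match, AAAGTCC from 117 to 111 bases before the start. The Apoa5 window held 3, which were GTTAAT on the minus strand from 158 to 153, AGGTCA from 103 to 98 and TATAAA from 30 to 25 bases before the start. The Apoc2 window held 2, AAAGTCC on the minus strand from 91 to 85 and TATAAA from 40 to 35. No match to these letters was found in the 3 Apoe windows. Of 33469 rat promoter windows of the same length, 12.9% held TATAAA, 14.1% AGGTCA, 3.99% AAAGTCC and 6.45% GTTAAT on either strand. A match is a description of the letters and not evidence of a bound site.

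**Figure D1:**
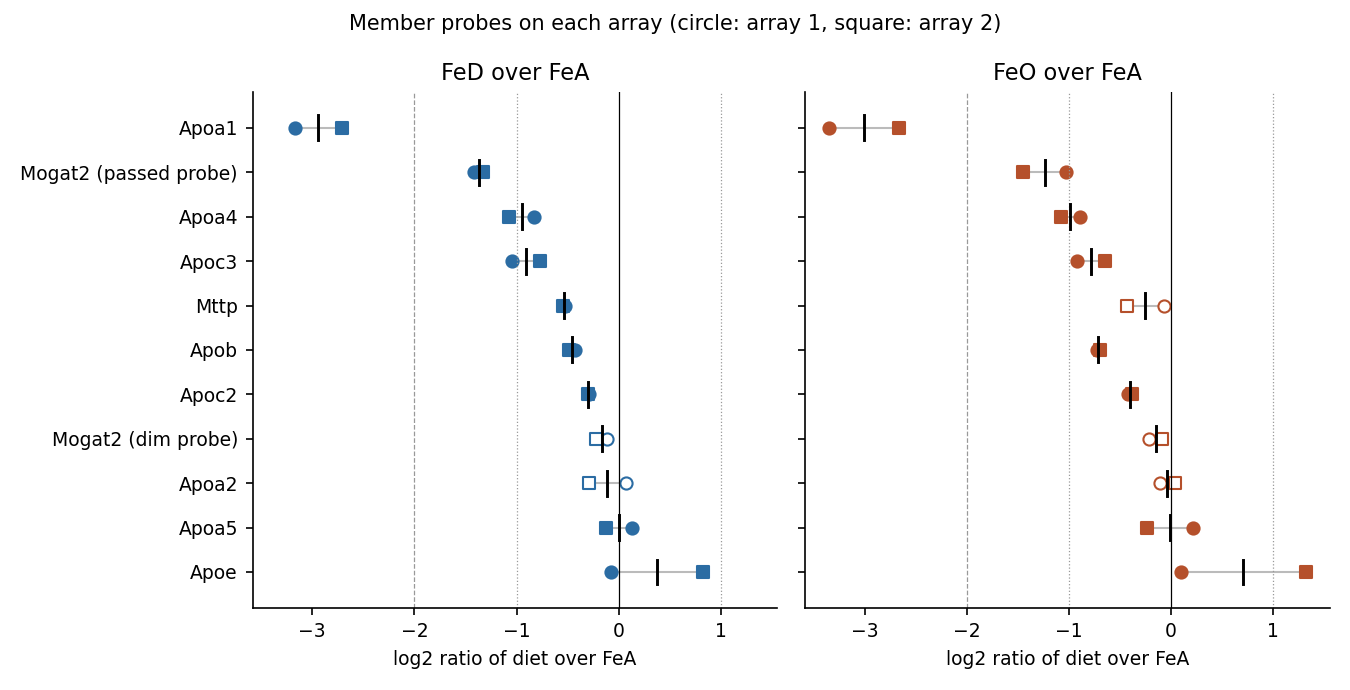
Log2 ratio of the FeD pool (left) and the FeO pool (right) over the FeA pool for each of the 11 probes, with array 1 as circles, array 2 as squares and the mean as a black bar; open symbols mark probes that were not well above background on both arrays of either pool, and the grey lines mark sizes of 1 and 2. Apoa1 stands apart near -3 in both panels, Apoa5 lies at 0, and the 2 Apoe arrays lie far apart.

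Among the genes of particle assembly, Apob was lower in both diet pools and more so in FeO. Its FeA signals were 9.26, 9.18, 9.35 and 9.18, those of FeD were 8.83 and 8.69, and those of FeO were 8.63 and 8.48, all well above background. The ratios were -0.42 and -0.48 in FeD (mean -0.45, 1.37-fold) and -0.73 and -0.70 in FeO (mean -0.71, 1.64-fold). The 2 ratios of one comparison did not overlap those of the other.

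Mttp, the lipid transfer protein that acts on Apob, lay close to background. In FeA it was well above background on both FeD arrays (6.51 and 6.75) and on 1 of the 2 FeO arrays (6.06 and 6.62), and in FeD (5.99 and 6.20) and FeO (5.99 and 6.18) on none. The FeD ratios were -0.52 and -0.55, with a bound of at least 1.38-fold lower. In FeO the probe did not pass the filter and its ratios were -0.07 and -0.43, and as FeA itself was at background on array 1, no fold is given. With processed signals the means were -2.97 in FeD and -2.29 in FeO. The lowest FeA value lay within the range of both diet pools.

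Mogat2 was measured by 2 probes, of which 1 was well above background on no array of any pool, with mean ratios of -0.17 in FeD and -0.15 in FeO. The other was well above background on all 4 arrays in FeA (7.29, 7.68, 7.26 and 7.67) and on none in FeD (5.88 and 6.35) or FeO (6.24 and 6.23). Its ratios were -1.41 and -1.33 in FeD and -1.03 and -1.45 in FeO. On the mean of the 2 arrays, the bounds were at least 2.44-fold lower in FeD and 2.34-fold lower in FeO. By that probe the groups did not overlap, and the dim probe gives no level to set beside it.

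Apoc2, the activator of lipoprotein lipase, was slightly lower, and the 2 arrays of each comparison differed little. The FeD ratios were -0.29 and -0.31 (mean -0.30) and the FeO ratios -0.42 and -0.38 (mean -0.40), with every pool above background on every array. The signals were 7.46 and 7.45 in FeD against 7.75 and 7.75 in FeA, and 6.84 and 7.03 in FeO against 7.26 and 7.41 in FeA. The FeA signals of the FeO arrays lay below the FeD signals, so the separation holds within an array and not across all 4. With processed signals the means were -0.58 and -0.79.

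Apoe, the ligand through which remnant particles are taken up by receptors, had a positive mean, but its arrays disagreed. The FeD ratios were -0.08 and 0.82 (mean 0.37) and the FeO ratios 0.10 and 1.32 (mean 0.71). The arrays differed by 0.90 and 1.22, and only 2.10% and 0.595% of all probes had a larger difference. In both comparisons array 2, with the diet pool in Cy3, gave the higher ratio. The signals were 12.66 and 13.28 in FeD, 13.01 and 13.76 in FeO and 12.44 to 12.91 in FeA, so FeO lay above all FeA values and FeD overlapped them. In Cy5 the FeD value was 12.66 against 12.45 and 12.44 in FeA, and in Cy3 it was 13.28 against 12.74 and 12.91. Values of the same dye come from different arrays, so dye and array cannot be told apart. Whether the dye takes a part was not tested.

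Apoc2 and Apoe are the ends of a second row of apolipoprotein genes on rat chromosome 1, with Apoc4 and Apoc1 between them. Apoc1 had mean ratios of -0.02 in FeD and 0.50 in FeO, and passed the background criterion for FeA on 1 of the 2 FeO arrays. The Apoc4 probe that was above background throughout gave 0.13 and 0.02, and a second one, above background in FeO but not in FeA, was at least 1.65-fold higher there. Across that row in FeO the means were -0.40 for Apoc2, 0.02 for the first Apoc4 probe, 0.50 for Apoc1 and 0.71 for Apoe. In FeD they were -0.30, 0.13, -0.02 and 0.37 in the same order. The Apoe arrays disagreed in both comparisons, as given above. Apoa2, the second protein of high density lipoprotein, was well above background in no pool on any array, so no level can be given.

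**Figure D2:**
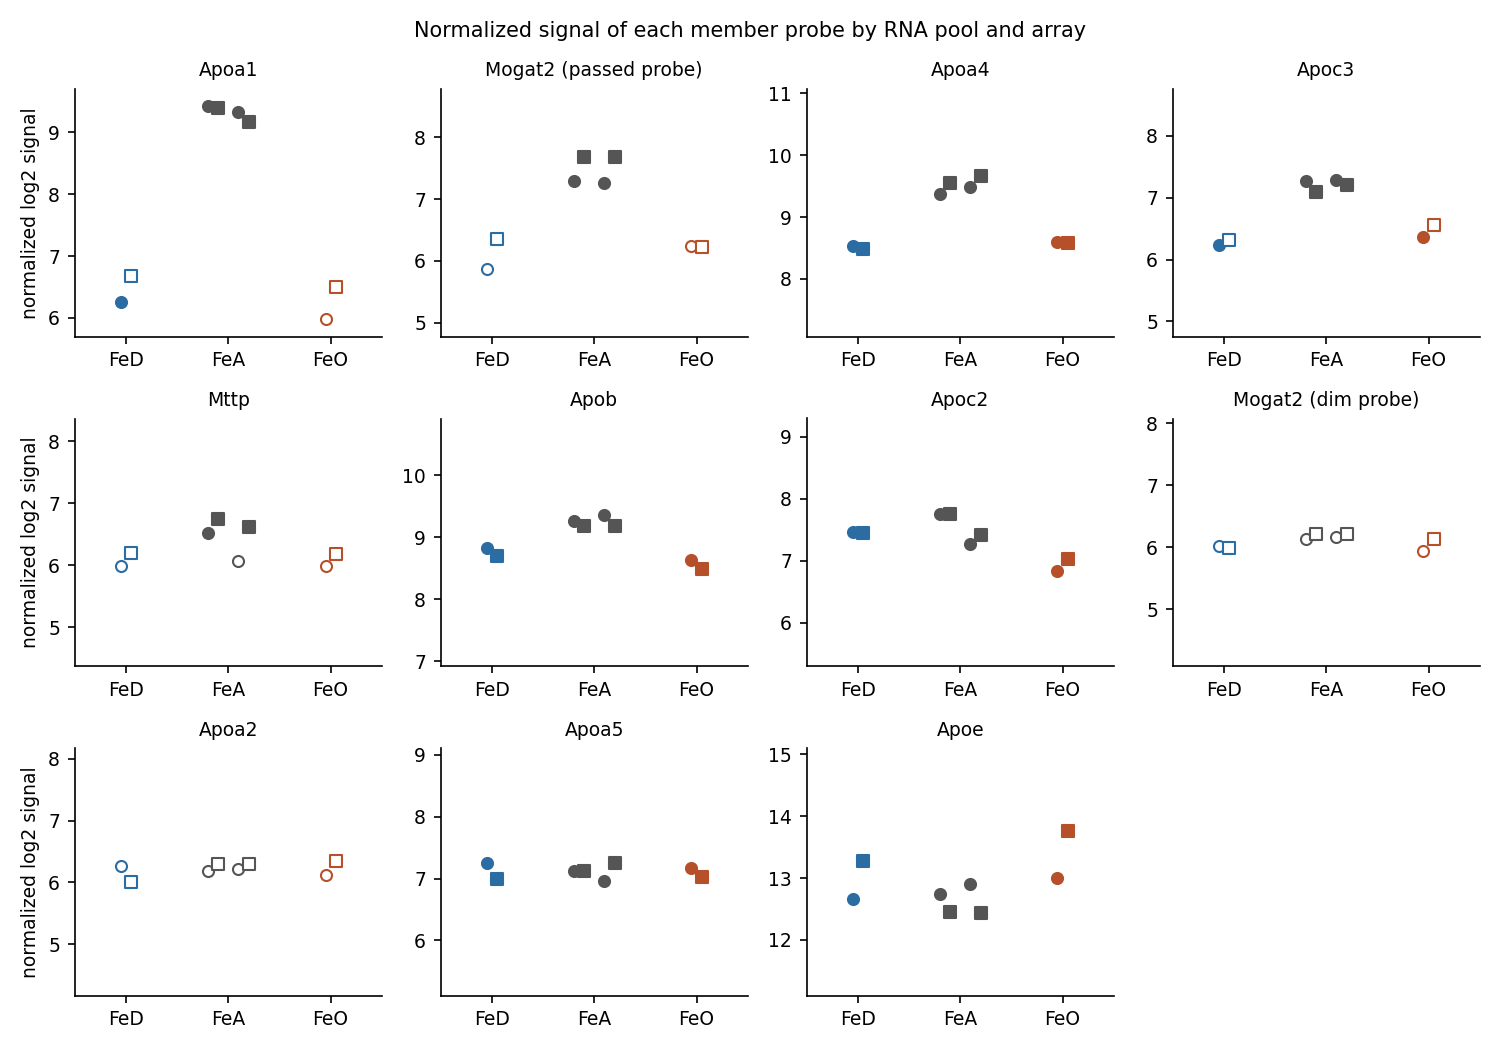
Normalized log2 signal of each member probe (y axis, 1 panel per probe, same span in every panel) by RNA pool, with array 1 as circles and array 2 as squares; filled symbols are well above background, and the FeA pool has 2 arrays from each comparison. In the Apoa1 panel all 4 FeA values stand above 9 and all diet values below 7, whereas in the Apoa5 panel the 3 pools overlap.

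In FeA 8 of the 11 probes were well above background on all arrays and 2 on none, against 5 and 4 in FeD and 5 and 5 in FeO. FeA was read on 4 arrays and each diet pool on 2, so these counts are on unlike terms. Of all gene spots on FeD arrays 1 and 2, 71.5% and 61.9% were well above background in FeD and 65.3% and 66.7% in FeA. On the FeO arrays the shares were 71.2% and 66.4% in FeO and 63.6% and 68.9% in FeA. The genes that entered were 9 in FeD and 8 in FeO. Apoa1 alone was called lower at a size of 2 in each comparison, where 0.0889% of 15748 genes in FeD and 0.134% of 16448 in FeO were called. At a size of 1, Apoa1 and Mogat2 were called lower in each, against 0.248% of genes in FeD and 0.505% in FeO. None of the 10 was called higher, against 0.127% and 0.663% of genes. The mean was below 0 for 8 of 9 in FeD and 7 of 8 in FeO, where 47% and 46.5% of all genes were, and both counts include Apoa5, whose sign differed between the arrays. The medians were -0.53 and -0.75, against 0.01 for all genes in both. As the genes were selected on these contrasts, and as dim genes entered through the FeA pool alone, these counts are a description and nothing follows from their distance to the background.

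**Figure D3:**
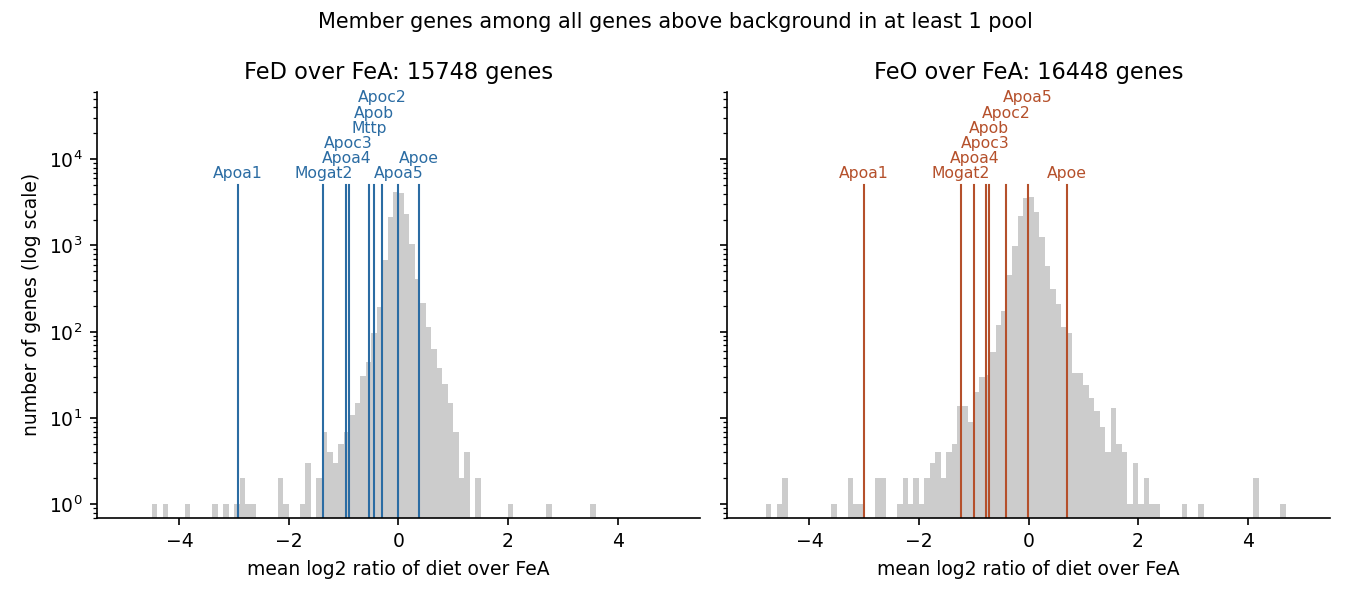
Number of genes (log scale) by mean log2 ratio over FeA in bins of 0.1 for all genes above background in at least 1 pool (15748 in FeD, 16448 in FeO), with the members as labelled lines. Apoa1 lies in the sparse lower tail of both panels, and Apoa5 and Apoe lie within the bulk or to its right.

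The genes nearest Apoa1 were ranked by Euclidean distance over the 4 array ratios among 15264 genes measured in both comparisons. The 5 nearest were Tff1 (distance 0.402), the glutathione transferase named Gsta5 by its accession (0.536), the intestinal fatty acid binding protein Fabp2 (0.550), the lectin Lgals4 (1.45) and Tff3 (1.78). Tff1 and Tff3 are secreted trefoil peptides of mucous cells. Tff1, well above background in every pool, had mean ratios of -2.86 in FeD and -2.75 in FeO. For Fabp2, which no diet array put well above background, the bounds were at least 6.76-fold lower for FeD and 6.32-fold lower for FeO. Since Apoa1 and Fabp2 were at background in a diet pool, their ratios and these distances depend on the background correction. Gsta5 belongs to a family of closely similar genes whose transcripts may share a probe.

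Other genes of the pathway were read from lists written with earlier results known. Of the other apolipoproteins and their plasma partners, 13 of 19 entered in each comparison, with medians of 0.06 in FeD and 0.07 in FeO. None was called at a size of 1 in FeD, and in FeO Lcat, the enzyme that esterifies cholesterol on high density lipoprotein, was called lower with ratios of -1.34 and -1.18 (mean -1.26). In FeD its mean was -0.82.

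Of 26 genes of chylomicron assembly and fat absorption, 19 entered in each comparison, with medians of -0.07 and -0.11. The fatty acid binding proteins Fabp1 and Fabp2 were called lower in both, with Fabp1 at -4.21 in FeD, where 1 of 2 FeD values was well above background, and at least 21.9-fold lower in FeO, where none was. The authors reported both, like Apoa1, as under the detection limit of qRT-PCR. In FeO the triacylglycerol synthase Dgat2 (1.16 and 2.05, mean 1.60) and the fatty acid transporter Cd36 (means of 1.15 and 1.06 by 2 probes) were called higher. Dgat2 lies next to Mogat2 on chromosome 1, acts after it in the same route and had the opposite sign. Sar1b, the GTPase that sends chylomicrons out of the endoplasmic reticulum, had means of -0.21 and -0.30.

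Of 20 lipoprotein receptors and lipolysis genes, 12 entered in FeD and 13 in FeO, with medians of 0.06 and 0.13. None was called in FeD, and in FeO the remnant receptor Lrp1 was called higher (0.73 and 1.47 on the 2 arrays).

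Of 26 regulators of apolipoprotein genes, 22 entered in FeD and 21 in FeO, with medians of -0.05 and 0.04. Creb3l3, a transcription factor of liver and intestine that acts on Apoa4 and Apoc2, was called lower in both. It was at least 2.20-fold lower in FeD, where the diet pool was not well above background, and had a mean of -1.03 in FeO, where 1 of 2 diet values was. Nr0b2, a nuclear receptor that represses others, was called lower in FeO (-1.18) and had a mean of -0.71 in FeD. Pparg, the regulator of fat cell genes, was called higher in FeO (1.56). Hnf4a, a regulator of many apolipoprotein genes, had means of -0.03 and -0.02, and Ppara of -0.02 and 0.07.

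Markers of other cell types are given beside these values. Of 14 enterocyte markers, 10 entered in FeD and 9 in FeO, with medians of -0.96 and -1.40. All of those had means below 0, where 47% and 46.5% of all genes did. Mep1b, Cdhr5, Cdh17 and, in FeD, Treh were dim in the diet pool and entered through the FeA pool alone. Such entry favours means below 0, so these counts and medians are a description. Called lower in each comparison were 5: Lgals4, Alpi, Krt20, Cdh17 and Cdhr5. The Cdhr5 probe that was called was well above background on no diet array. Its bounds were at least 2.39-fold lower in FeD and 2.63-fold lower in FeO, and the other Cdhr5 probe was well above background in no pool. Cdh17 was not well above background in the FeO pool, where its bound was at least 3.54-fold lower. The 2 probes of Alpi disagreed in size, with -2.41 and -0.34 in FeD and -2.58 and -0.29 in FeO, all well above background. The summed normalized signal of the list was 46.0% and 50.5% of FeA on the 2 FeD arrays and 39.9% and 43.5% on the FeO arrays. That sum takes every probe of the list, those at background included, and weighs bright probes most, so it is not a share of RNA. Of the brush border genes on the list, Alpi and Cdhr5 were among those called lower. Mep1b, well above background in FeA only, had means of -0.77 in FeD and -0.87 in FeO. Si and Mep1a were not well above background in any pool, and Slc5a1, Slc15a1 and Treh on some arrays only. Lct (-0.12 and -0.03), Anpep (-0.21 and -0.08) and Vil1 (-0.19 and -0.13) were well above background in every pool. The arrays had opposite signs for Vil1 in both comparisons and for Lct in FeO. The part of such cells in the lower members was not tested.

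Of 14 hepatocyte markers, 5 entered in FeD and 6 in FeO, none was called, and the medians were 0.14 and 0.30. Of 7 adipocyte markers on the array all entered, with a median of -0.03 in FeD and 1.92 in FeO, where Adipoq, Cfd, Cidec, Fabp4 and Car3 were called higher with means from 1.47 to 2.30. Lep (0.10) and Lipe (0.40 and 0.24 by 2 probes) were not called. The summed signal of that list was 332% and 359% of FeA on the FeO arrays and 83.5% and 92.3% on the FeD arrays. That sum weighs bright probes most, and Cfd was the brightest of the list in FeO (14.47). The part of the adipocyte list in the Apoe, Lrp1, Cd36, Dgat2 and Pparg values of FeO was not tested. Of 10 macrophage markers 9 entered in each comparison, none was called, and the medians were 0.22 and 0.27. All 8 islet markers entered, with medians of -0.25 and -0.54. None was called in FeD, and in FeO Ppy and Iapp (-1.02) were called lower and Gcg (1.14) higher. Acinar markers had medians of -0.04 over 15 genes in FeD and -0.31 over 10 of 15 in FeO, none called. Cpa1, Cela2a, Cela3b, Prss1 and Clps were well above background but had no ratio on an FeO array, because outlier spots were left out.

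**Figure D4:**
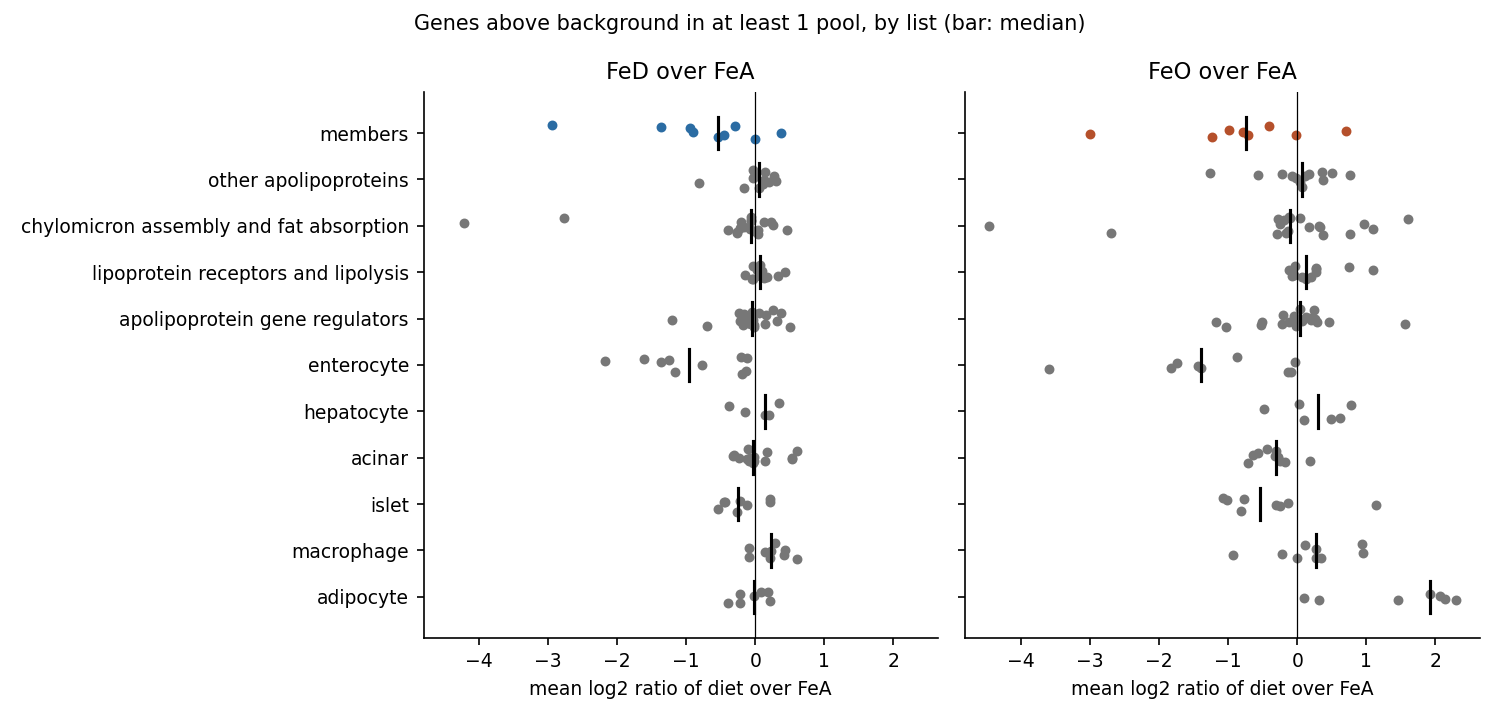
Mean log2 ratio over FeA of each gene above background in at least 1 pool (points, spread vertically at random) for the members, 4 pathway lists and 6 cell type lists, with the median as a black bar. The members and the enterocyte markers lie mostly below 0 in both panels, and the adipocyte markers have a median of 1.92 in FeO and -0.03 in FeD.

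The size of the ratios of dim probes depended on the background correction. With the scanner software's processed signals the mean ratio of Apoa1 was -4.61 in FeD and -5.73 in FeO, that of the brighter Mogat2 probe -4.89 and -3.99, that of Apoc3 -3.17 and -2.19, and that of Mttp -2.97 and -2.29. Over 5 ways to treat the signals, Apoa4 stayed between -1.12 and -0.91 in FeD and between -1.20 and -0.94 in FeO, and Apob between -0.53 and -0.43 and between -0.90 and -0.66. Apoc2, also well above background in every pool, ranged from -0.58 to -0.28 and from -0.79 to -0.36.

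**Figure D5:**
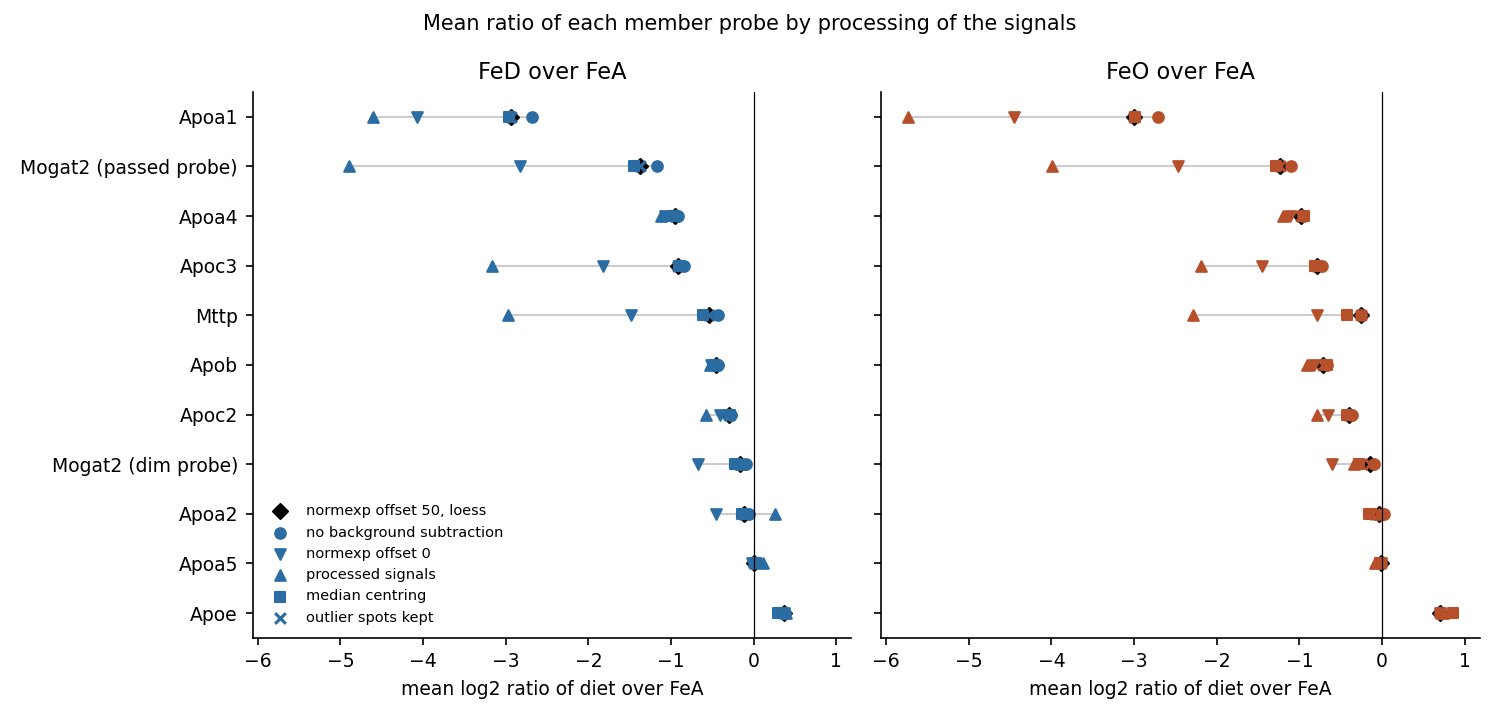
Mean log2 ratio over FeA of each member probe under the main processing (black diamond) and 5 other ways to treat the signals. The marks of Apoa4, Apob and Apoe stay close together, whereas those of Apoa1, Apoc3, Mttp and the Mogat2 probe that entered spread by more than 1 log2 unit in FeD.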

How the data were processed

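The authors scanned a 4-pack rat array and deposited, per the file headers, intensity values from Agilent Feature Extraction 10.1.1.1. The other deposited columns used hold array annotation and flags. The authors' tables of fold changes, p-values and q-values hold their own comparisons, so only gene symbols were taken from them. All 4 arrays were used, and the headers place them on 1 slide with 1 scan time, so no array batch could be set apart. The members and gene lists were chosen with earlier results of these data known.

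Median spot intensities were background corrected with limma 3.58.1 in R 4.3.3 (normexp, offset 50) and normalized by loess within each array. Outlier and control spots had weight 0, spots of a probe were averaged, and array 2 was turned. Signals of single pools, bounds and the methods' t-test used Aquantile-normalized channels. A bound sets the brighter pool against the higher of the dim probe and the lowest signal well above background. It is a mean over both arrays under the main processing, and a single array or another processing can give a smaller fold. A probe was well above background when more than 50% of its spots were. Of 30367 probes, 18004 were named by accession in RefSeq, 4945 by the authors' table and 7418 by the array.

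Named were all members, per list and direction at most the 5 most extreme genes past a size of 1, and the 5 genes nearest Apoa1. Other list genes (such as Hnf4a, Sar1b, Lct, Anpep and Vil1) and neighbours were chosen after their values were seen. No test of diets was possible with 1 pool each, and the number of arrays limits the precision. The steps were tested on simulated data. Python 3.11.15, pandas 2.3.3, numpy 2.4.6 and scipy 1.17.1 were used for the rest. Alternatives are given in the closing section.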

Additional observations from a re-analysis of the deposited data

How the results depend on the processing

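Each diet was 1 RNA pool on 2 arrays, so these alternatives bear on measurement and not on variation among rats. The number of members lower at a size of 2 (1 in each comparison) was 2 in FeD and 2 in FeO with a normexp offset of 0, 4 and 3 with processed signals, 0 and 0 when both pools had to be above background, and 0 and 0 by the methods' t-test after Benjamini-Hochberg adjustment. That t-test gave 1 in each before adjustment, when 1084 of 17513 probes in FeD and 1465 of 18315 in FeO passed 0.05, and 0 of all probes after it. The number lower at a size of 1 (2 in each) was 5 and 4 with an offset of 0, 5 and 4 with processed signals, and 0 and 0 with both pools above background, which removes Apoa1 and Mogat2. On 1 array alone it was 3 and 3 in FeD and 2 and 3 in FeO, and 1 and 1 at a size of 2 in both.

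The median of the member probes in FeD (-0.53) was -0.43 without background subtraction, -1.08 with an offset of 0, -1.12 with processed signals, -0.61 with median centring, -0.49 with no filter, -0.30 with both pools above background, and from -0.55 to -0.52 on 1 array. In FeO (-0.75) it was -0.97 with an offset of 0, -1.05 with processed signals, -0.55 with no filter, -0.40 with both pools above background, and from -0.81 to -0.67 on 1 array. Apoe had a mean above 0 under all 5 ways to treat the signals, but was -0.08 on array 1 in FeD. No paired analysis was possible because the arrays of a comparison are technical repeats of the same pools.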
